A study of Homo sapiens with 40 samples.

Results

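The genes described here lie on the long arm of human chromosome 17, beyond the gene SPOP towards the chromosome end. A gene was taken when the annotation (GENCODE release 29, build GRCh38) placed a protein-coding gene with its start above position 49678234, the end of SPOP, and when it had at least 50 counts on average over 40 libraries. Gene families and single genes that the rule sets aside by symbol (for example those beginning with SLC, ZNF or MRP) were left out. This gave 196 of the 19962 genes of the count table, with starts from 49710332 to 83079691. Of 379 protein-coding genes of the table in that stretch, 150 were under the count limit and 33 were set aside by symbol. The region was itself chosen by measured values, the lower levels of its genes in 1 comparison, doxycycline against DMSO in cells with control guides, so values of that comparison are given as a description without a test.

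All libraries came from RKO, an established human colorectal carcinoma line, with Cas9 under a doxycycline-inducible promoter, a GFP marker and a vector with a pair of guide RNAs and a blue fluorescent protein. Cells positive for the blue protein had been sorted, and no single-cell clone is named in the labels. There were 10 groups of 4 libraries. The line with guides against AAVS1, used as a control locus, was given DMSO or doxycycline (Dox). The lines with guides against IGF2BP2 or IGF2BP3, which encode RNA-binding proteins, were given DMSO, Dox, a non-targeting siRNA (siControl) or an siRNA pool against the gene their guides target (siIGF2BP2 or siIGF2BP3). Dox was used at 250 ng/mL for 72 hours to switch on Cas9, and siRNA at 75 nM for 48 hours, without Dox. Every group, controls included, received the uridine analogue s4U at 250 µM for 2 hours and its RNA was alkylated, the chemistry of SLAMseq. The counts analysed here are of all poly(A) RNA of a gene, old and new.

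Genes that are neighbours on a chromosome share the copy number of their segment and parts of its chromatin, while most of them have unrelated functions. Distal 17q holds genes for actin (ACTG1), fatty acid synthesis (FASN), protein folding (P4HB), histone H3.3 (H3F3B) and vesicle coats (CLTC), and gain of this region is common in several tumour types. SPOP itself encodes a substrate adaptor of a cullin 3 ubiquitin ligase.

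The guide sequences of the control line are shown because its Dox group is the one in which these genes stood lowest. Both are 20 bases, written 5′ to 3′ in lower case, and the capitals in the target site mark the PAM, the motif that Cas9 needs beside its target.
AAVS1 guide 1: cgctgtgccccgatgcacac
AAVS1 guide 2: ggcgcgtcgctcgctcgctc
Site of guide 1 in PPP1R12C: cgctgtgccccgatgcacacTGG
Guide 1 matched exactly in 1 of 35116 promoter windows (RefSeq, GRCh38.p14), that of PPP1R12C on chromosome 19, at 55117789 to 55117808 on the forward strand. Guide 2 had no exact match in those windows, but 2 of them held a match with at most 2 mismatches. Whether a PAM stood beside these was not examined. In the promoter windows of the 158 members that have one, each guide had at least 5 mismatches, and in those of SPOP they had at least 8 and 9. In the 22 annotated transcripts of SPOP, guide 1 had at least 8 mismatches and guide 2 at least 6. Introns and the rest of the genome were not searched.

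Total counts ranged from 10018181 to 24822807 per library, with a median of 13468792. Levels are in CPM, the counts divided by library totals scaled by edgeR's trimmed mean of M-values, and are compared between groups for 1 gene, not between genes. The targeted mRNAs followed the labels in every library. IGF2BP2 was at 29.5 to 38.0 CPM with Dox in sgIGF2BP2 cells against 83.8 to 86.7 with DMSO, and at 29.2 to 31.7 with siIGF2BP2 against 103 to 113 with siControl. IGF2BP3 was at 51.1 to 59.1 CPM with Dox in sgIGF2BP3 cells against 175 to 185 with DMSO. With siIGF2BP3 it was at 22.6 to 26.4 against 164 to 174 with siControl. IGF2BP3 was also lower with Dox in sgIGF2BP2 cells, at 145 to 155 CPM against 165 to 185 with DMSO. IGF2BP2 was higher with siControl than with DMSO in both lines. In sgIGF2BP3 cells it had 110 to 118 CPM with siControl against 92.6 to 98.0 with DMSO. Among epithelial markers EPCAM, KRT8, KRT18 and CDX2 were present in all libraries, CDH1, KRT19 and VIL1 had a median of 0 CPM, and the blood and endothelial markers did not exceed 0.299 CPM. Of 5 mesenchymal markers, VIM was at 26.1 to 39.96 CPM and ACTA2 at 1.72 to 10.99, COL1A1 did not exceed 1.10, and COL1A2 and PDGFRB had a median of 0. The labels give 1 well per condition and 4 repeats; where repeats were not separate cultures, p-values measure technical spread only.

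Taken as a whole, the distal 17q genes gave a smaller share of the RNA in the sgAAVS1 Dox group than in any other group. With DMSO, the 4 sgAAVS1 libraries drew 2.27% ± 0.037 (SD, n = 4) of their counts from the 196 genes. With Dox this was 2.01% ± 0.027, with single libraries from 1.99% to 2.05%. Means of the other 8 groups lay between 2.22% and 2.29%. All 4 Dox libraries of the control line lay below all other 36 libraries. In bulk RNA, fewer cells expressing these genes and less RNA per cell cannot be told apart.

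**Figure D1:**
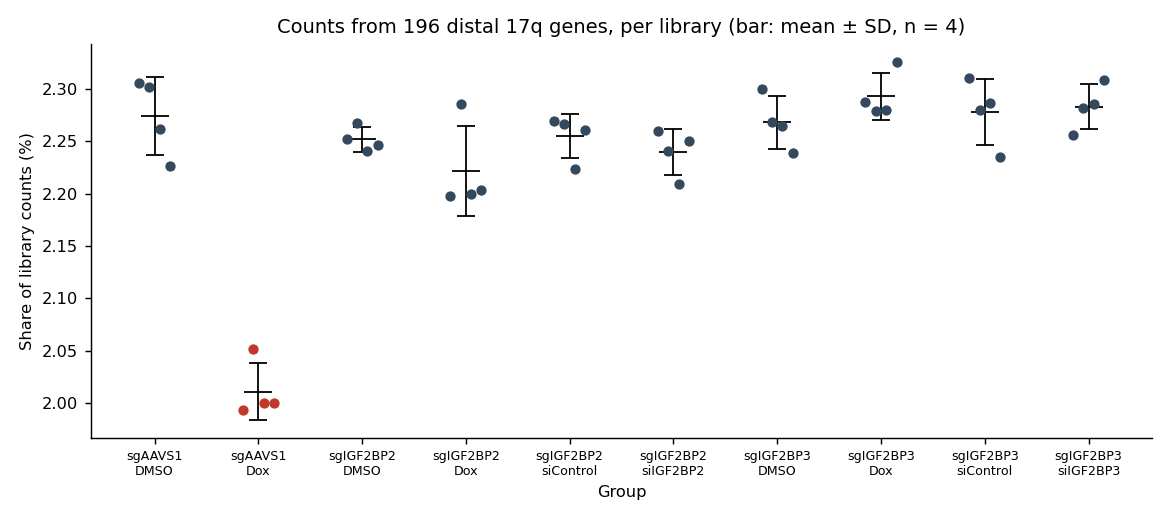
Share of each library's counts (vertical axis, %) that came from the 196 distal 17q genes, by group (horizontal axis), with 1 point per library and a bar for the mean ± SD of 4. The 4 sgAAVS1 Dox libraries sit at 1.99% to 2.05%, and the means of the other groups lie from 2.22% to 2.29%. The axis does not start at 0.

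The lower share was spread over most of the genes rather than carried by a few abundant ones. Between Dox and DMSO in sgAAVS1 cells, 181 of 196 genes had a log2 fold change below 0, where 48.7% of all 11428 genes tested did. The median was −0.18, or 88.1% of the DMSO level, with quartiles at −0.26 and −0.11. For 114 genes all 4 Dox libraries lay below all 4 DMSO libraries (58.2% of the members; 9.48% of all tested genes), and for 0 genes did they all lie above (8.04% of all tested genes). The log2 fold change was below −0.2 for 88 genes (44.9%, against 6.66% of all genes tested) and below −0.3 for 29. The median of all genes tested was 0.00. The 442 tested chromosome 17 genes before SPOP had a median of −0.04, and 54 other tested genes beyond SPOP that the rule leaves out had −0.13. Relative to the genes before SPOP, the members' median was −0.14. These values chose the region and are no test of it.

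The same genes did not sit low in the control line before induction. Across the DMSO groups, the log2 level in sgAAVS1 cells minus that in the other lines had a median of 0.02 over the members and 0.00 over all genes tested. The sgAAVS1 DMSO libraries are part of the comparison that chose the region, so this value is not independent of the choice. With Dox in the other lines, the members' median log2 fold change was 0.01 in sgIGF2BP2 cells and 0.01 in sgIGF2BP3 cells. In those, 90 and 87 of 196 genes were lower with Dox, near the shares of all genes tested (47.6% and 48.7%).

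By distance from SPOP, the lower levels of the sgAAVS1 Dox group ran along the whole stretch. In windows of 5 Mb from SPOP outwards, the median log2 fold change was −0.16 over 17 genes, −0.17 over 24, −0.16 over 29, −0.12 over 12, −0.17 over 5, −0.17 over 54 and −0.23 over 55. Every window held a majority of lower genes, with the window of 12 genes having 9. On the other side of SPOP, the 5 windows of that size, nearest first, had medians of −0.03, −0.06, −0.05, −0.00 and −0.07. Medians were lower in each window beyond SPOP than in each of these 5. This comparison chose the region, so that difference is no test of a boundary at SPOP. The windows before SPOP were not refitted with the GC offset. At the limit itself PHB, a mitochondrial chaperone gene just outside the limit, stood at −0.23, and SPOP at −1.68. SNF8 and UBE2Z, also just outside, had −0.11 and −0.05. Just inside, FAM117A had −0.14, KAT7 0.11 and PDK2 −0.04.

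**Figure D2:**
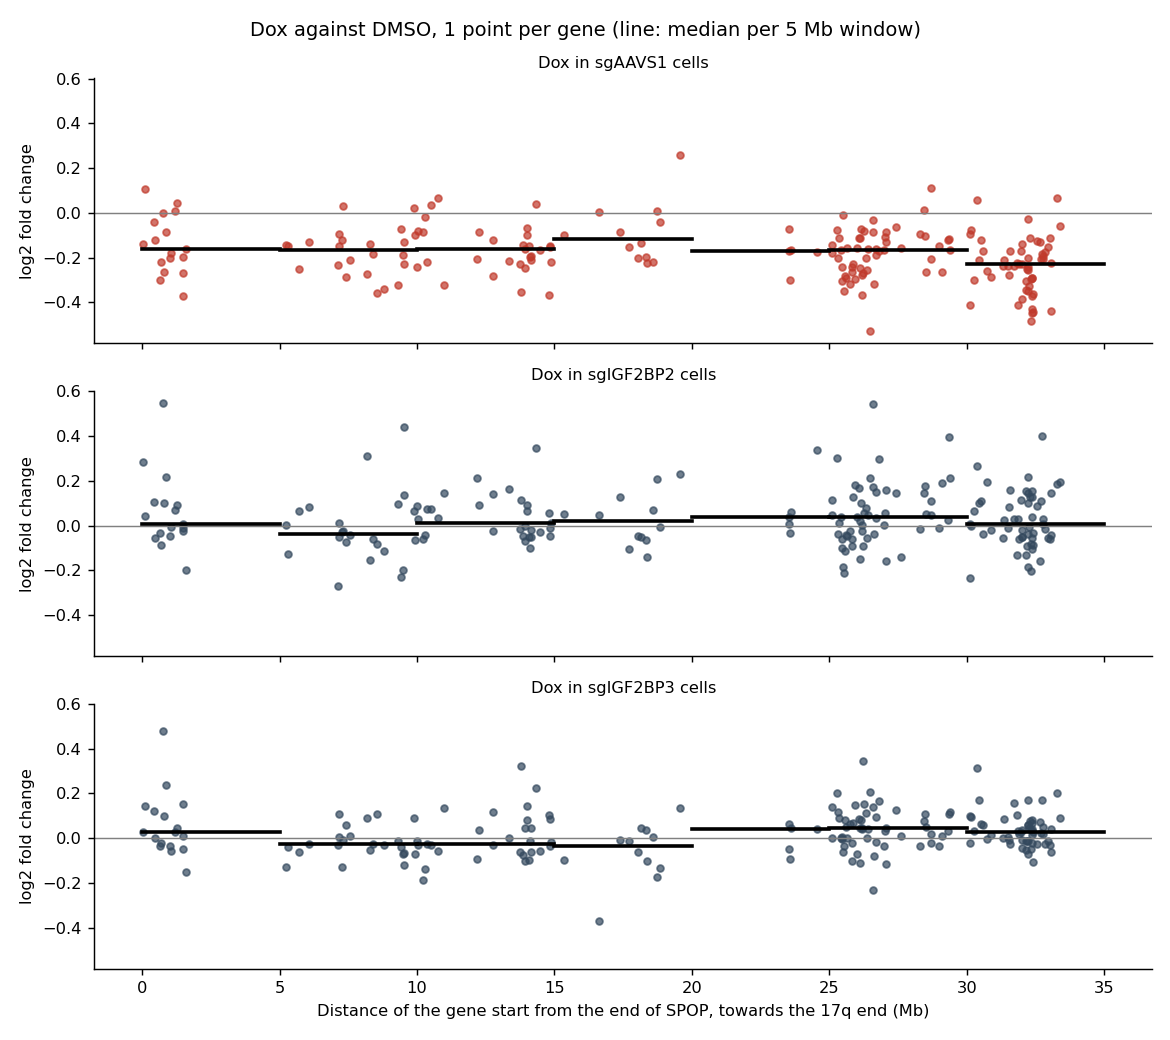
Log2 fold change of Dox against DMSO (vertical axis) for each of the 196 genes by distance of its start from the end of SPOP (horizontal axis, Mb), in the 3 lines; black lines are medians per 5 Mb window. In sgAAVS1 cells the medians run from −0.12 to −0.23, and in the other lines from −0.04 to 0.04.

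At the count limit, GDPD1 (53.5 mean counts, log2 fold change −0.23), RNF157 (53.9, −0.53) and FBF1 (69.1, −0.27) were just inside. CEP112 (49.5, −0.18), TUBD1 (48.9, 0.09) and ARSG (39.9, −0.03) were just outside.

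GC content moved with the fold changes in this comparison. The GC percent of the longest coding transcript had a median of 61.75% in the outermost window and 44.22% in the second, against 48.72% over tested genes. Across genes, Spearman's rank correlation between GC and log2 fold change was −0.33 over the 196 members and −0.26 over 11401 tested genes, which share libraries and base composition. With a GC offset in the fit, 182 of 196 members were below 0, their median was −0.17, and the outermost window was at −0.19 and the second at −0.20. Spearman's rank correlation with distance from SPOP was −0.22, with expression level −0.18 and with gene length 0.18, each across the 196 members. In the other comparisons the rank correlation between GC and log2 fold change was positive. It was largest with Dox in sgIGF2BP3 cells, at 0.435 over the members and 0.415 over the tested genes. With siControl in sgIGF2BP3 cells it was 0.296 and 0.243, and the remaining comparisons ran from 0.097 to 0.261 over the members.

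Among members of at least 10 CPM, the genes standing lowest with Dox in sgAAVS1 cells all lie in the last few megabases of the arm. FASN, the fatty acid synthase (chromosome 17, 82078333 to 82098332, reverse strand), had 933, 977, 1016 and 1049 CPM in the DMSO libraries and 708, 714, 738 and 762 in the Dox libraries. No Dox library reached the lowest DMSO library, and the log2 fold change was −0.44, or 73.5% of control. RAC3, a small GTPase of the Rac group (82031624 to 82034204), had 97.7, 107, 110 and 112 CPM with DMSO and 75.9, 77.4, 78.6 and 81.5 with Dox, a log2 fold change of −0.45 without overlap. Its neighbour LRRC45, a centrosome linker protein (82023302 to 82031151), went from 40.5, 41.2, 42.5 and 43.9 CPM to 27.3, 29.5, 30.6 and 33.3 (−0.48). DCXR, an L-xylulose reductase (82035136 to 82037732), had 67.3, 70.5, 71.0 and 74.6 CPM and then 51.3, 51.5, 52.0 and 55.5 (−0.43).

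TBCD, a tubulin folding cofactor (82752064 to 82945922), had 64.9, 70.2, 75.6 and 78.3 CPM with DMSO and 52.5, 52.6, 53.4 and 54.3 with Dox (−0.44). FAAP100, a subunit of the Fanconi anaemia core complex (81539885 to 81553961), had 96.9, 99.1, 102 and 107 CPM and then 73.6, 74.6, 76.9 and 79.6 (−0.41). These 2 genes also showed no overlap between the groups. TBCD shares exon bases with B3GNTL1 and LRRC45 with CENPX; whether the counting used strand is not stated, so reads of such pairs may not be separated.

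Not every member followed. Values of 0 or above were found for 15 genes. SOCS3, a feedback inhibitor of cytokine signalling, had 10.98, 11.2, 11.6 and 12.6 CPM with DMSO and 10.15, 12.6, 13.3 and 14.1 with Dox (log2 fold change 0.11). The histone acetyltransferase gene KAT7 had 28.0, 28.4, 28.8 and 29.9 CPM and then 27.7, 28.7, 33.4 and 33.9 (0.11). APPBP2 had 16.8, 17.9, 20.3 and 20.8 CPM and then 19.2, 19.4, 20.04 and 20.8 (0.07). The groups overlapped for all 3, and their values depended on single libraries. KAT7 was at 0.05 without Dox replicate 1 and 0.07 without Dox replicate 3. SOCS3 was at 0.20 without Dox replicate 2 and 0.06 without Dox replicate 3. APPBP2 was at 0.01, 0.04 and 0.12 without DMSO replicate 1, 2 and 4, at 0.04 without Dox replicate 1, and at 0.00 with the GC offset.

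By function, every list of members had a median below 0 with Dox in sgAAVS1 cells. This comparison chose the members, so low lists follow from the choice and are no result about functions. Of all tested genes 48.7% were below 0. The lists were written from general knowledge of what the genes do, with earlier results of these data known. For metabolism and protein folding in the endoplasmic reticulum (ER), 28 of 28 members were below 0, with a median of −0.21. P4HB, a protein disulfide isomerase, had 1388, 1489, 1498 and 1533 CPM with DMSO and 1180, 1195, 1197 and 1205 with Dox (−0.31). For RNA processing and translation 26 of 27 were below 0 (median −0.20). There the export adaptor ALYREF stood at −0.26 and the RNA helicase DDX5 at −0.15. For cytoskeleton, mitosis and cilium 17 of 18 were below 0 (median −0.23), with ACTG1, cytoplasmic gamma-actin, at 4549, 4659, 4719 and 4861 CPM and then 4002, 4012, 4031 and 4036 (−0.22), and the nuclear import receptor KPNA2 at −0.23.

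The other lists had medians from −0.14 to −0.33. Chromatin and transcription had 14 of 16 members below 0 (median −0.14), with the histone gene H3F3B at −0.25 and the forkhead factor FOXK2 at −0.18. Membrane traffic and autophagy had 19 of 20 (median −0.15), with CLTC, the clathrin heavy chain, at −0.10 and HGS, which sorts ubiquitinated receptors, at −0.23. In kinase, G protein and growth signalling 16 of 19 were below 0 (median −0.16). Its member ARHGDIA, a GDP dissociation inhibitor of small GTPases, stood at −0.25 and the sphingosine kinase SPHK1 at −0.19. The ubiquitin and SUMO list had 13 of 15 (median −0.17), with the ligase SMURF2 at −0.22 and NPLOC4, a cofactor of the p97 ATPase, at −0.23. All 4 members of the DNA repair and telomere list were below 0 (median −0.33), the helicase RECQL5 at −0.30. Of 8 surface and secreted proteins 7 were below 0 (median −0.15), with EVPL, envoplakin, at −0.20 and MXRA7 at −0.17.

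**Figure D3:**
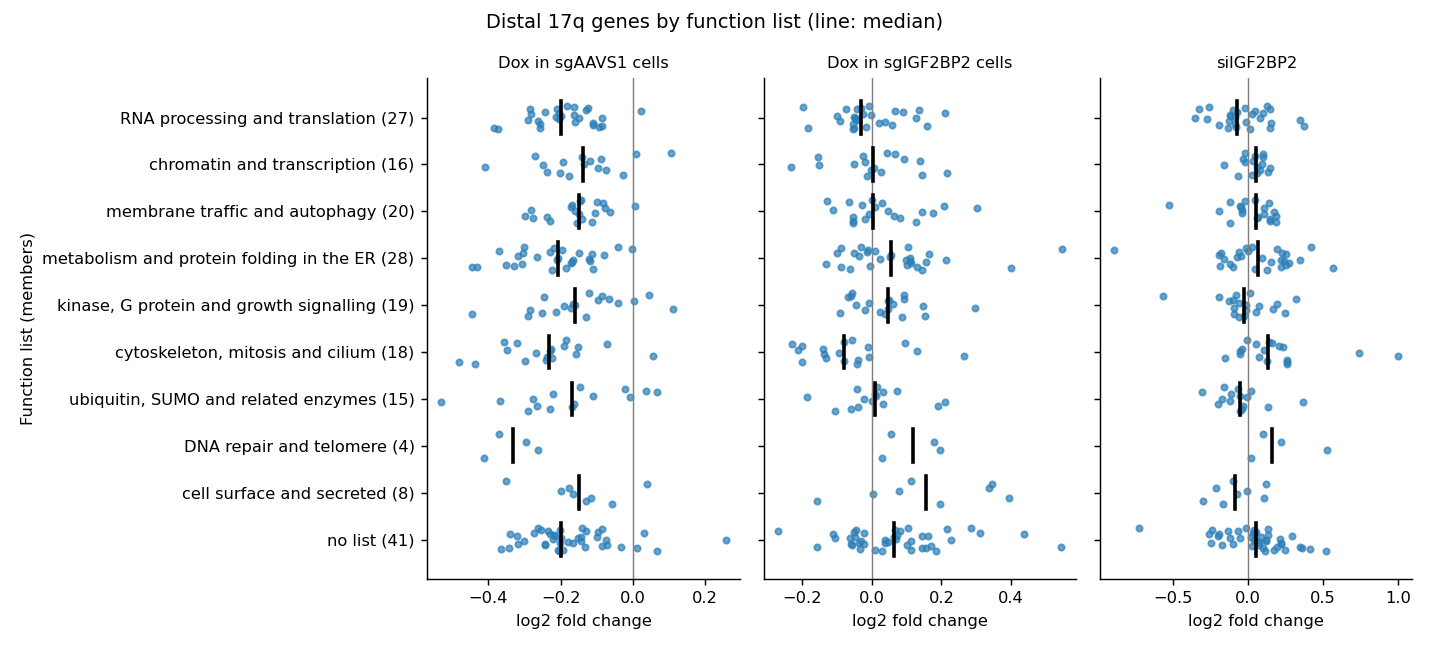
Log2 fold changes (horizontal axes) of the 196 genes by function list (vertical axis, number of members in brackets) for Dox in sgAAVS1 cells, Dox in sgIGF2BP2 cells and siIGF2BP2, with 1 point per gene and a black line at the list median. In sgAAVS1 cells, the comparison that chose the genes, every list median is below 0. In the other comparisons the lists fall on both sides.

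Over all 10 groups, 133 of the 196 genes (67.9%, against 11.6% of all tested genes) had their lowest mean in the sgAAVS1 Dox group and 0 had their highest there. Low values in that group chose the region, so these counts are no test of it. Spreads over 10 groups hold the same values. The spread of a gene was taken as the range of its 10 group means of log2 CPM. It had a median of 0.33 over the members and 0.31 over all tested genes, and 0.25 and 0.29 once both sgAAVS1 groups were left out. Among genes of at least 10 CPM, these medians were 0.32 for members and 0.27 for tested genes over 10 groups. Without the sgAAVS1 groups they were 0.24 and 0.26. Of all groups, siIGF2BP2 held the most highest means of members, with 67 genes (34.2%, against 25.3% of all tested genes), and 24 lowest means (12.2%, against 23.5%). The widest spreads among members of at least 10 CPM were those of NME1 (1.01), TBCD (0.84) and LRRC45 (0.80). NME1 was lowest with siIGF2BP2, and TBCD and LRRC45 were lowest with Dox in sgAAVS1 cells and highest with siIGF2BP2. Among the narrowest were FAM104A (0.15, group means from 43.8 to 48.6 CPM) and ARL16, a small GTPase (0.16, from 31.0 to 34.7). For both the median SD within a group, 0.07 and 0.10 on the log2 scale, leaves neighbouring group means undistinguished.

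**Figure D4:**
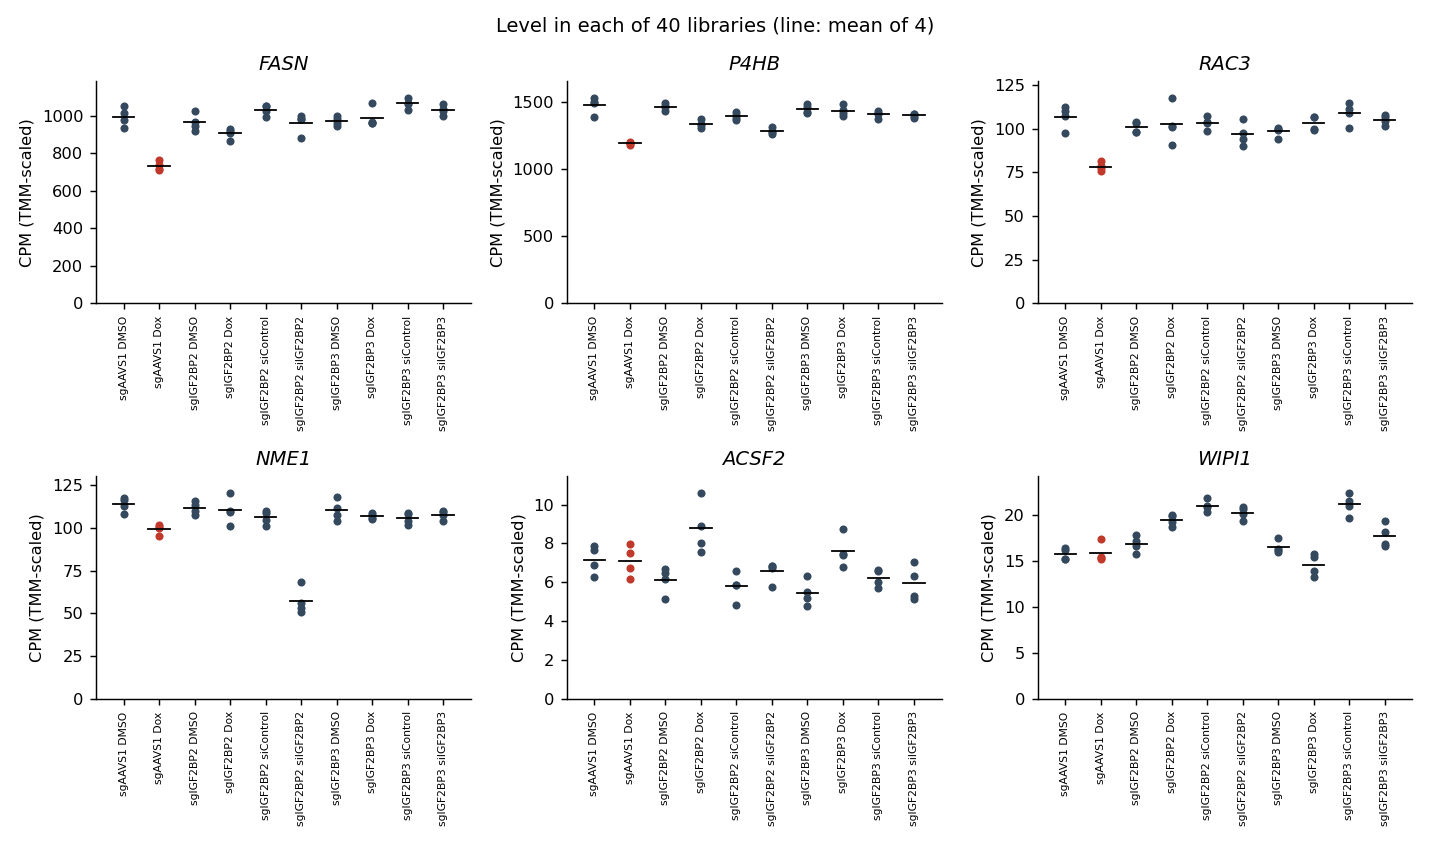
Levels (vertical axes, CPM, from 0) of 6 members in each of the 40 libraries by group (horizontal axes), with a line at the mean of 4 and the sgAAVS1 Dox group in red. FASN, P4HB and RAC3 are lowest in the red group, NME1 with siIGF2BP2, ACSF2 is highest with Dox in sgIGF2BP2 cells, and WIPI1 is highest with siControl.

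The other 6 comparisons did not choose the region and were tested with edgeR's quasi-likelihood test; a gene is called at a Benjamini-Hochberg adjusted p under 0.05 over all 11428 genes tested. Members had to reach the count limit and the other tested genes did not. At 10 CPM or more were 175 of the 196 members and 8739 of the 11428 tested genes, so the shares called are not matched for level. After Dox in sgIGF2BP2 cells, 42 of the 196 genes were called, 23 higher (10.0% of all tested genes) and 19 lower (10.4%). That is 21.4% of the members where 20.4% of all tested genes were called, close to the background. In the list of cytoskeleton, mitosis and cilium, the 7 called of 18 were all lower (10.4% of all tested genes were), with a median of −0.08 against 0.01 over all genes tested. With the GC offset 8 were called lower and 0 higher. Over the 196 genes that offset gave 19 higher and 28 lower, with 23.1% of all tested genes called.

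Among its members SKA2, part of the complex that couples kinetochores to microtubules, had 83.6, 83.8, 87.5 and 90.4 CPM with DMSO and 71.8, 71.9, 73.6 and 77.5 with Dox. All Dox libraries lay lower, and it fell by 0.23 on the log2 scale (SE 0.044, edgeR adjusted p = 6.3e-05). NUP85, a nuclear pore scaffold protein that also acts at kinetochores, went from 77.3, 80.1, 80.3 and 85.2 CPM to 66.8, 67.2, 69.8 and 74.0, a log2 change of −0.21 (SE 0.042, edgeR adjusted p = 9.77e-05). LRRC45 (−0.20), KPNA2 (−0.14) and ACTG1 (−0.13) were also called lower. CBX2, a Polycomb protein of the chromatin list, had 53.8, 54.6, 54.6 and 61.3 CPM and then 45.1, 45.2, 49.6 and 51.3, without overlap (−0.23, SE 0.054, edgeR adjusted p = 0.000908).

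Of the genes that rose with Dox in sgIGF2BP2 cells, ACSF2 had the greatest log2 fold change among those without overlap. It encodes a mitochondrial acyl-CoA synthetase. Its level went from 5.16, 6.15, 6.46 and 6.69 CPM to 7.55, 8.03, 8.89 and 10.6, a log2 change of 0.55 (SE 0.119, edgeR adjusted p = 0.000379). GDPD1, a lysophospholipase D, had 3.39, 3.78, 4.01 and 4.12 CPM and then 4.31, 5.31, 5.32 and 5.87 (0.44, SE 0.140, edgeR adjusted p = 0.0171). HEXDC, a hexosaminidase, had 5.13, 5.15, 5.34 and 5.59 CPM and then 6.42, 6.63, 6.76 and 7.90 (0.40, SE 0.148, edgeR adjusted p = 0.0452). These are low counts, and HEXDC shares exon bases with CYBC1 and OGFOD3; its call was lost in 9 of 14 alternative fits and that of GDPD1 in 2 of 14.

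After Dox in sgIGF2BP3 cells, 7 members were called (3.57%, against 2.64% of all tested genes), 6 higher (background 1.64%) and 1 lower (1.01%). ACSF2 was again higher, from 4.75, 5.18, 5.51 and 6.33 CPM to 6.80, 7.41, 7.47 and 8.74 without overlap (log2 change 0.48, SE 0.127, edgeR adjusted p = 0.023). SPATA20, a thioredoxin-domain protein, had 71.4, 76.5, 76.8 and 79.2 CPM and then 86.7, 88.5, 89.3 and 94.2 (0.24, SE 0.046, edgeR adjusted p = 0.000652). HID1, a Golgi protein of dense-core vesicle formation, had 53.3, 54.2, 54.4 and 58.4 CPM and then 60.7, 60.7, 65.5 and 66.2 (0.20, SE 0.050, edgeR adjusted p = 0.0129). The gene called lower was UTP18, a factor of ribosomal RNA processing, with 74.5, 77.1, 77.6 and 80.1 CPM and then 65.4, 68.8, 70.5 and 74.0 (−0.15, SE 0.044, edgeR adjusted p = 0.0439). ACTG1, called lower in sgIGF2BP2 cells, was called higher here (0.10), a call lost in 9 of 14 alternative fits. Calls were lost for UTP18 in 8 of 14, for HID1 in 4 of 14 and for ACSF2 in 4 of 13. The count of 7 was 2 without DMSO replicate 4, Dox replicate 2 or Dox replicate 4, 3 without DMSO replicate 3, and 4 with the GC offset.

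Set side by side, the Dox effect in sgIGF2BP2 cells was 0.22 for SPATA20, 0.30 for HID1 and −0.20 for UTP18, each called. In sgAAVS1 cells the values were −0.00 for ACSF2, −0.09 for SPATA20, −0.08 for HID1 and −0.16 for UTP18. Members were chosen for lower values in that comparison, so it is no neutral reference for them, and the gap was not tested. The difference between the Dox effects of the IGF2BP lines was called for 5 members (2.55%, against 2.91% of all tested genes). CBX2 was one of them, with an effect 0.33 higher in sgIGF2BP3 than in sgIGF2BP2 cells (SE 0.076, edgeR adjusted p = 0.00524). For ACSF2 the difference was −0.07 (SE 0.174, edgeR adjusted p = 0.906), so no difference was detected at this precision.

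The siRNA against IGF2BP2 gave the most calls. With siIGF2BP2 against siControl, 87 members were called (44.4%, against 36.8% of all tested genes), 51 higher (26.0%, against 18.4%) and 36 lower (18.4%, as in all tested genes). In the outermost window the median log2 fold change was 0.12, against medians from −0.06 to 0.04 in the other windows. That window also had the highest median GC, and over 11401 genes the rank correlation between GC and log2 fold change was 0.17 in this comparison. With the GC offset the members' calls split into 43 higher and 48 lower, with 39.5% of all tested genes called in that fit.

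NME1, a nucleoside diphosphate kinase (51153536 to 51162428, forward strand), had the largest fall. It had 101, 104, 109 and 110 CPM with siControl and 50.5, 53.0, 55.9 and 68.3 with siIGF2BP2. Every siIGF2BP2 library was far below every other library of the series, and the fall was 0.89 on the log2 scale, to 53.8% of control (SE 0.052, edgeR adjusted p = 1.49e-23). Reads of NME1 and its close paralog NME2 may be divided or dropped by the counting. NME2 had group means of 5.72 CPM with siControl and 5.73 with siIGF2BP2 (0.00, SE 0.137, edgeR adjusted p = 0.988). With Dox in sgIGF2BP2 cells, where IGF2BP2 mRNA was lowered by Cas9, NME1 had a mean of 110 ± 7.92 CPM against 112 ± 3.57 with DMSO (SD, n = 4).

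FAM117A, next to SPOP, had 6.73, 7.99, 8.52 and 8.56 CPM with siControl and 4.17, 4.54, 4.99 and 5.37 with siIGF2BP2 (log2 change −0.73, SE 0.128, edgeR adjusted p = 4.44e-06). It shares exon bases with KAT7. RPS6KB1, the S6 kinase downstream of mTORC1, had 29.3, 31.5, 33.9 and 36.8 CPM and then 20.3, 20.9, 23.8 and 24.3 (−0.56, SE 0.070, edgeR adjusted p = 6.24e-10). Neither gene showed overlap. With Dox in sgIGF2BP2 cells FAM117A had a log2 change of 0.28 (SE 0.109, edgeR adjusted p = 0.0542), not called although all 4 Dox libraries lay above the DMSO libraries. There RPS6KB1 had a log2 change of −0.06 (SE 0.067, edgeR adjusted p = 0.586).

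With siIGF2BP2, 18.4% of all tested genes were called in each direction, against which the lists can be read. In the list of cytoskeleton, mitosis and cilium 10 of 18 members were called higher and 1 lower (median 0.13, against 0.01 over all genes tested), and 9 and 3 with the GC offset. CCDC40, which is needed for the dynein arms of motile cilia, had 3.79, 4.29, 4.33 and 4.44 CPM with siControl and 7.66, 7.78, 8.23 and 10.0 with siIGF2BP2. The level doubled to 200.4% of control, a log2 change of 1.00 (SE 0.126, edgeR adjusted p = 1.18e-09). FBF1, a protein of the ciliary transition fibres, had 3.39, 3.45, 4.23 and 4.92 CPM and then 5.85, 6.32, 6.61 and 8.11 (0.74, SE 0.139, edgeR adjusted p = 1.47e-05). TBCD and LRRC45 each rose by 0.26, and ACTG1 was the member called lower (−0.15).

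In metabolism and protein folding, 11 of 28 members were called higher and 7 lower (10 and 8 with the GC offset). HEXDC rose from 5.11, 5.61, 5.97 and 7.23 CPM to 7.92, 8.75, 8.78 and 9.89 without overlap (0.57, SE 0.139, edgeR adjusted p = 0.000765). DCXR rose (0.22), while P4HB (−0.12) and FASN (−0.10) were called lower, FASN with the call lost in 4 of 14 alternative fits. RNA processing and translation had 7 of 27 called higher and 9 lower (6 and 11 with the GC offset), with UTP18 at −0.26 and ALYREF at −0.13 among the falls and DDX5 at 0.08 among the rises. The calls of DDX5 and ALYREF were lost in 5 and 2 of 14 fits. The ubiquitin and SUMO list had 2 of 15 called higher and 5 lower (2 and 7 with the GC offset), SMURF2 among the latter (−0.11). ARHGDIA rose by 0.25 (SE 0.032, edgeR adjusted p = 2.62e-09).

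With siIGF2BP3 against siControl only 4 members were called (2.04%, against 2.34% of all tested genes), 1 higher (background 0.936%) and 3 lower (1.4%). SMURF2, a ubiquitin ligase of TGF-beta signalling, had 506, 509, 525 and 545 CPM and then 561, 564, 574 and 592 (log2 change 0.14, SE 0.036, edgeR adjusted p = 0.0173). CCDC47, an ER protein of membrane protein insertion, had 115, 116, 116 and 128 CPM and then 100.2, 100.6, 103 and 106 (−0.21, SE 0.045, edgeR adjusted p = 0.00252). WIPI1, a phosphoinositide-binding protein of autophagosome formation, had 19.6, 20.9, 21.5 and 22.4 CPM and then 16.6, 16.8, 18.2 and 19.3 (−0.26, SE 0.068, edgeR adjusted p = 0.0195). SCPEP1, a serine carboxypeptidase, had 48.4, 48.5, 52.6 and 52.6 CPM and then 43.0, 44.4, 44.7 and 46.3 (−0.18, SE 0.052, edgeR adjusted p = 0.0461). In all 4 the groups did not overlap. Calls were lost for SCPEP1 in 7 of 14 alternative fits, for WIPI1 in 5 and for SMURF2 in 3. The count of 4 was 2 without siControl replicate 2, 3 or 4, without siIGF2BP3 replicate 1 or 2, and without the count filter. SMURF2, WIPI1 and CCDC47 share exon bases with a tested neighbour.

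The effects of the siRNA pools differed for 46 members (23.5%, against 18.7% of all tested genes). The effect of siIGF2BP3 minus that of siIGF2BP2 was 0.92 for NME1 (SE 0.071, edgeR adjusted p = 5.47e-17), 0.83 for FAM117A and 0.53 for RPS6KB1. It was −1.01 for CCDC40 and −0.58 for FBF1. The pools were tested in different lines, so the pool and the line cannot be told apart.

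Between siControl and DMSO in the same line, members were called at about the rate of all genes, with a larger share of rises and a smaller share of falls. In sgIGF2BP2 cells 37 were called (18.9%, against 18.4% of all tested genes). Of these, 25 were higher (12.8%, against 10.2%) and 12 lower (6.12%, against 8.16%). In sgIGF2BP3 cells 43 were called (21.9%, against 19.4%), 31 higher (15.8%, against 10.9%) and 12 lower (6.12%, against 8.54%). With the GC offset the members split into 27 higher and 16 lower in sgIGF2BP2 cells, with 22.1% of all tested genes called. In sgIGF2BP3 cells that fit gave 25 higher and 15 lower, with 20.8% of all tested genes called. The siControl and DMSO groups differ both in transfection and in DMSO, which cannot be told apart. Each of these comparisons shares its siControl libraries with an siRNA comparison and its DMSO libraries with a Dox comparison above.

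WIPI1 was higher with siControl in both lines. In sgIGF2BP2 cells it had 15.7, 16.6, 17.2 and 17.8 CPM with DMSO and 20.3, 20.8, 20.9 and 21.8 with siControl (log2 change 0.32, SE 0.067, edgeR adjusted p = 0.000273). In sgIGF2BP3 cells it had 15.98, 16.1, 16.3 and 17.5 CPM and then the 4 siControl values given above (0.36, SE 0.069, edgeR adjusted p = 4.51e-05). XYLT2, a xylosyltransferase that starts glycosaminoglycan chains, had 74.3, 76.7, 77.6 and 78.0 CPM with DMSO in sgIGF2BP3 cells and 91.1, 95.9, 98.3 and 100.2 with siControl (0.33, SE 0.043, edgeR adjusted p = 6.73e-09). In sgIGF2BP2 cells its value was 0.28, also called. CUEDC1 rose in sgIGF2BP3 cells (0.29, SE 0.079, edgeR adjusted p = 0.00575). In sgIGF2BP2 cells the ubiquitin ligase RNF157 rose from 2.23, 3.06, 3.15 and 3.51 CPM to 4.07, 4.34, 4.42 and 4.72 (0.54, SE 0.148, edgeR adjusted p = 0.00553), and METRNL, a secreted protein, rose by 0.28 (edgeR adjusted p = 0.0458).

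DYNLL2, a dynein light chain, was lower with siControl in both lines. It had 121, 123, 123 and 128 CPM with DMSO and 101, 106, 106 and 113 with siControl in sgIGF2BP2 cells (−0.22, SE 0.040, edgeR adjusted p = 1.59e-05). In sgIGF2BP3 cells it had 123, 123, 126 and 128 CPM and then 96.7, 104, 105 and 105 (−0.28, SE 0.040, edgeR adjusted p = 1.22e-07). SUMO2, a protein modifier, fell in sgIGF2BP3 cells from 170, 176, 178 and 181 CPM to 144, 145, 145 and 150.5 (−0.27, SE 0.038, edgeR adjusted p = 1.17e-07); it shares exon bases with JPT1 on the same strand. GDPD1 fell there by 0.54 (SE 0.155, edgeR adjusted p = 0.00824). In sgIGF2BP2 cells BAIAP2, an adaptor of membrane protrusions, fell by 0.26 (edgeR adjusted p = 0.000288) and EVPL by 0.21 (edgeR adjusted p = 0.00212). For no member was the difference between the siControl effects of the lines called by edgeR, and 1 of all tested genes (0.00875%) was. At an unadjusted p under 0.05 there were 5 members (5.16% of all tested genes); no other tool was run on this difference.

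**Figure D5:**
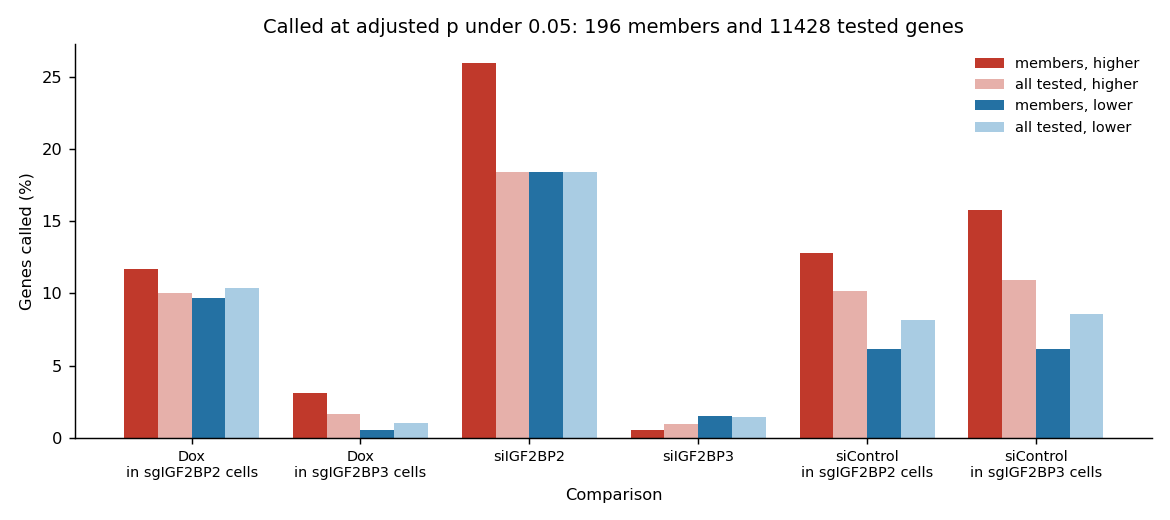
Percent of genes called (vertical axis) higher (red) or lower (blue) at an adjusted p under 0.05 in the 6 tested comparisons (horizontal axis), for the 196 members (dark) and all 11428 tested genes (pale). The widest gap is that of rises with siIGF2BP2, at 26.0% of members against 18.4% of all genes. With the GC offset, not drawn here, 43 members were called higher and 48 lower in that comparison.

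Over these 6 tested comparisons 67 of the 196 genes were called in none, 66 in 1, 41 in 2, 16 in 3 and 6 in 4. As shares of the members these are 34.2%, 33.7%, 20.9%, 8.16% and 3.06%. Among all tested genes the shares are 40.3%, 33.1%, 16.4%, 7.22% and 2.32%. A smaller share of members than of tested genes was called in none, but the shares are not matched for level.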

How the data were processed

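Counts per gene of 40 libraries were deposited by the authors as 1 table, not normalized. Per the submitters' processing notes, bcl2fastq 2.20.0.422 and STAR 2.7.5c were used with hg38; the counting tool and its use of strand are not given in the sources used here. The library kit marks strand, per the labels' protocols. Counts were used as deposited, with no rounding. Gene names, types and positions came from GENCODE release 29, which named 19847 of 19962 identifiers. filterByExpr left 11428 genes, all 196 members among them. edgeR 4.0.16 (R 4.3.3) was fitted to all 40 libraries with a coefficient per group (glmQLFit, glmQLFTest; TMM factors from 0.978 to 1.03; common biological coefficient of variation 3.79%), with Benjamini-Hochberg adjustment over all tested genes. The fit was tested on simulated data. The standard error was the size of the log2 fold change divided by the square root of F. GC percent was that of the longest protein-coding transcript. Guides were searched on both strands of RefSeq promoter windows (GRCh38.p14).

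Alternatives were DESeq2 size factors, DESeq2 1.42.0, no filter, only the libraries compared, a replicate block and leaving out each library. A GC offset, centring on chromosome 17 genes before SPOP, and leaving out members that share exon bases (62 do, 57 with a gene of the opposite strand) were added after seeing the data, as were the tests of differences between effects. The members and the function lists were chosen with earlier results of these data known. Named genes were, per tested comparison, up to 3 called rises and 3 called falls of greatest size without overlap; for Dox in sgAAVS1 cells the 6 lowest and 3 highest of at least 10 CPM; the 3 widest and 3 narrowest spreads (1 of the latter is not reported here); the 2 members of highest CPM per list; genes at the limits of the rule; and SPOP. NME2 falls outside it and was named for its similarity to NME1.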

Additional observations from a re-analysis of the deposited data

Results flagged for a closer look

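In 7 of 93 groups of 4 libraries examined, 1 library stood far from the other 3 by Dixon's criterion; chance alone marks about 1 group in 20. The share of counts from the distal 17q genes was 2.051% in sgAAVS1 Dox replicate 2, where the other 3 libraries had 1.993% to 2.000%, and 2.286% in sgIGF2BP2 Dox replicate 2 (others 2.198% to 2.203%). CBX2 was at 61.25 CPM in sgIGF2BP2 DMSO replicate 2 (others 53.8 to 54.65). CCDC47 was at 128.1 CPM (others 114.8 to 116.3) and DYNLL2 at 96.65 CPM (others 104.4 to 105.2) in sgIGF2BP3 siControl replicate 1. GDPD1 was at 4.713 CPM in sgIGF2BP3 DMSO replicate 2 (others 4.133 to 4.198). DCXR was at 55.49 CPM in sgAAVS1 Dox replicate 3 (others 51.26 to 51.98).

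Among the genes named by rule, the effects differed between the IGF2BP3 and the IGF2BP2 arm by edgeR's test of the difference for 1 gene with Dox and 7 with siRNA (5 and 46 over all members). The Dox effect on CBX2 was 0.33 higher on the log2 scale in sgIGF2BP3 cells (SE 0.076, edgeR adjusted p = 0.00524). The siIGF2BP3 effect minus the siIGF2BP2 effect was −1.01 for CCDC40 (edgeR adjusted p = 3.55e-05), −0.58 for FBF1 (0.034 by the same test) and −0.23 for SCPEP1 (0.019). It was 0.92 for NME1 (edgeR adjusted p = 5.47e-17), 0.83 for FAM117A (0.000271), 0.53 for RPS6KB1 (2.73e-05) and 0.25 for SMURF2 (0.000137). SMURF2 was called higher with siIGF2BP3 and lower with siIGF2BP2. What these differences rest on was not tested, and for siRNA the pool and the line cannot be told apart.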

How the results depend on the processing

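Of 42 single-gene results refitted, none reversed. Of 587 alternatives, 534 stayed the same, 49 lost the call and 4 moved. In the tested comparisons, staying the same means keeping direction and side of the threshold. Dox in sgAAVS1 cells has no threshold, and only there could a value move, by at least the SD of the DMSO replicates. Calls were lost for HEXDC (Dox, sgIGF2BP2 cells) in 9 of 14 fits, UTP18 (Dox, sgIGF2BP3 cells) in 8, SCPEP1 in 7, METRNL in 6, WIPI1 (siIGF2BP3) in 5, HID1 in 4, SMURF2 in 3, GDPD1 (Dox, sgIGF2BP2 cells) in 2, CUEDC1 in 1 and ACSF2 (Dox, sgIGF2BP3 cells) in 4 of 13. Of 19 further called values printed in the text, over 266 alternatives, 0 turned and 4 lost the call at least once (ACTG1 with Dox in sgIGF2BP3 cells, FASN, ALYREF and DDX5 with siIGF2BP2). Other printed values were not examined this way. The values that moved were KAT7, SOCS3 (0.20 without Dox replicate 2) and SPOP (−1.74 without it).

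The median of the members with Dox in sgAAVS1 cells was −0.17 with the GC offset and −0.142 relative to chromosome 17 genes before SPOP. With at least 500 mean counts, 96.83% of 126 members were lower. With the GC offset, 4 members were called with Dox in sgIGF2BP3 cells in place of 7; the split turned from 23 higher and 19 lower to 19 and 28 with Dox in sgIGF2BP2 cells, and from 51 and 36 to 43 and 48 with siIGF2BP2. Without the count filter 2 were called with siIGF2BP3. Among 134 members sharing no exon bases, a smaller set, 54 were called with siIGF2BP2, 1 with siIGF2BP3 and 22 with siControl in sgIGF2BP2 cells.

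Leaving out 1 library gave medians from −0.195 to −0.180 in sgAAVS1 cells. Counts of called members ran from 33 to 44 and from 2 to 6 with Dox in sgIGF2BP2 and sgIGF2BP3 cells, from 74 to 81 and from 2 to 3 with siIGF2BP2 and siIGF2BP3, and from 26 to 35 and from 32 to 42 with siControl. With Dox in sgIGF2BP3 cells the count was 3 without DMSO replicate 3 and 2 without DMSO replicate 4, Dox replicate 2 or Dox replicate 4. With siIGF2BP3 it was 2 without siControl replicate 2, 3 or 4 or siIGF2BP3 replicate 1 or 2. The cause was not tested, and fewer libraries give less power by construction.

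Replicate numbers are shared between groups. Deviations of same-numbered libraries had a mean correlation of 0.034 (−0.449 to 0.315), against −0.011 for libraries of different numbers. Of 180 same-numbered pairs 41 were over 0.1, and 16 of 40 libraries correlated best with their own number. The numbers were not taken as pairs in the main fit, and whether same-numbered libraries share an effect was not tested. With a replicate block, 43, 8, 87, 4, 38 and 43 members were called with Dox in sgIGF2BP2 and sgIGF2BP3 cells, siIGF2BP2, siIGF2BP3, and siControl in both lines, and the sgAAVS1 median was −0.180. No fit varied the depth, so what depth limits was not tested.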
